A study of Sus scrofa with 599 samples.

Results

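Greater omentum (GOM) and mesenteric adipose tissue (MAD) of pigs that had lost weight were compared here in 20 RNA-seq libraries and 20 Hi-C samples, 10 of each tissue in each assay, out of 236 RNA-seq and 240 Hi-C samples with a label in the whole series. The members were every deposited library labelled as weight loss (WL) and as GOM or MAD. Labels and no measured value set which libraries entered, but earlier results of these data were known when the members were chosen. All of them came from female Bama pigs, 2 years old at the start, that were fed a high-fat diet for 22 weeks and then held for 12 weeks at 10% of the normal caloric intake, so both tissues share the gain and the loss of weight. Neither group carries a genetic change. Per the study's methods, each WL pig gave both tissues, but the labels do not tie a replicate number to a pig, and the libraries were compared as 10 against 10. Weight-gain (WG) pigs, which ate the high-fat diet without the later restriction, were compared with them at the end, with 45 GOM and 36 MAD RNA-seq libraries and 46 and 37 Hi-C samples. Normal-diet pigs, with 9 GOM and 12 MAD samples in each assay, took the place of WG pigs in an alternative. The purpose of the comparison was to describe how these 2 visceral depots differ after weight loss in transcription, in the A and B compartments of the genome and in active enhancers.

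The greater omentum is an apron of fat that hangs from the stomach. Mesenteric fat lies between the peritoneal folds that carry vessels, nerves and lymph to the intestine. Mesothelium, the thin epithelium that lines the peritoneal cavity, covers the omentum and these folds alike. Mesothelial cells arise from the lateral plate mesoderm, keep a set of developmental transcription factors and make retinoic acid, matrix and complement factors, and the mesentery holds many lymph nodes. Open, gene-rich chromatin forms the A compartment and closed chromatin the B compartment, and acetylation of histone H3 at lysine 27 (H3K27ac) marks active enhancers, of which long, strongly marked stretches are called super-enhancers.

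Mesothelial genes differed widely between the depots, and their summed level was higher in every GOM library than in any MAD library. Among the genes higher in GOM were WT1, the transcription factor of the mesothelium and the kidney, LRP2, the endocytic receptor megalin, and CDH1, which encodes E-cadherin of epithelial junctions. In each of these 3 genes the expression values of the 2 tissues did not overlap, and the bin of the gene start lay further into compartment A in GOM. A super-enhancer of GOM but none of MAD lay within 10 kb of each. Per the study's methods, Hi-C was made from the tissue layer that holds adipocytes, and no such step is named for RNA. The index and the expression may therefore stand for unlike mixes of cells. The promoters of these 3 genes are printed because all 3 assays differed near them. Each window holds 250 bases before and 50 bases from the RefSeq start of the gene, in the sense of the gene, on Sscrofa11.1. Capitals mark the E box CAGGTG and the CCAAT box on either strand, so that CACCTG and ATTGG are the same letters read on the other strand.

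WT1 (ENSSSCG00000013316), chr2:28411217-28411516, plus strand: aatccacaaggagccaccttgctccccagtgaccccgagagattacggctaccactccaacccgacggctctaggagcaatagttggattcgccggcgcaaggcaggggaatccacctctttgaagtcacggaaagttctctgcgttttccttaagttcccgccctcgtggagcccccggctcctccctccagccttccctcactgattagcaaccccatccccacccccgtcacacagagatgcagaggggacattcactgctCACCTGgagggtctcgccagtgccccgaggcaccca

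LRP2 (ENSSSCG00000040746), chr15:75754555-75754854, minus strand: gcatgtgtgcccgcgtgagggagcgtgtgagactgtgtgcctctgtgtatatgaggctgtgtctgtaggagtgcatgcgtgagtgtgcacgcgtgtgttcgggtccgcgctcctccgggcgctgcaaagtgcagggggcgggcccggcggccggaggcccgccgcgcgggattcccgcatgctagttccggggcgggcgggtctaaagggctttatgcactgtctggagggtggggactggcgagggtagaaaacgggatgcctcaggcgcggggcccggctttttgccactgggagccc

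CDH1 (ENSSSCG00000025652), chr6:18155937-18156236, minus strand: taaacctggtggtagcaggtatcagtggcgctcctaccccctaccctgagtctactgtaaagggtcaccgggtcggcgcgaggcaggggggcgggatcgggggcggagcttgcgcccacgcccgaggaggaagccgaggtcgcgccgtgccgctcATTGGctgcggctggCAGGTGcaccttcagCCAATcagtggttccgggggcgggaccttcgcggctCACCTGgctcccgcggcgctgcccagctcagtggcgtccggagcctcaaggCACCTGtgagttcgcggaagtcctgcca

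Counting from 0 at the first base of the gene, the CDH1 window holds 3 E boxes at -80, -29 and 22 and 2 CCAAT boxes at -95 and -65. The WT1 window holds 1 E box at 14, and the LRP2 window holds neither motif. Of 19559 such windows over all RefSeq genes, 22.5% hold CAGGTG and 35.4% hold CCAAT, while 10.9% hold TATAAA, which is in none of the 3. The LRP2 and CDH1 windows are rich in CpG, with 28 each and a GC content of 67.3% and 68.7%, against a median of 16 and 58.7% over all windows. The WT1 window has 15 CpG and 60.3% GC. A match of letters is a description and shows no binding. The windows of WT1 and CDH1 lie within the span of an H3K27ac region in the pooled samples of both tissues, and that of LRP2 within one of GOM alone. The authors joined neighbouring peaks into these regions and left out peaks near gene starts. Such an overlap therefore does not show acetylation at the promoter itself, and its absence does not show a lack of it.

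Sequencing depth was alike in the tissues, with 10221110 to 19119707 counts on protein-coding genes (PCGs) per library. The share of length-scaled transcript abundance (TPM) on PCGs ran from 70.8% in GOM replicate 9 to 93.8% in MAD, and 14070 to 16429 PCGs per library were above 0.5 TPM. The summed TPM of adipocyte genes ran from 8432 to 20527 in GOM and from 5187 to 24375 in MAD, and that of exocrine pancreas genes was at most 15.6 in any library. A list of intestinal epithelium genes summed to 1007 TPM in GOM replicate 10 and to at most 511 in MAD, mostly from APOA1. MAD replicates 1, 6 and 7 stood apart. Their summed TPM of B and plasma cell genes was 2719, 3802 and 8179, while the other 7 MAD libraries held 420 to 673 and the 10 GOM libraries 325 to 882. T and NK cell genes moved with them, at 652 to 1323 TPM against 93.5 to 199 in the other 7, and their adipocyte sum was 5187 to 14433. Each expression result is therefore also given without these 3 libraries where a call or a count changed, a choice made after their values were seen. The rule was a summed TPM of the B and plasma cell list above that of every GOM library.

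**Figure D1:**
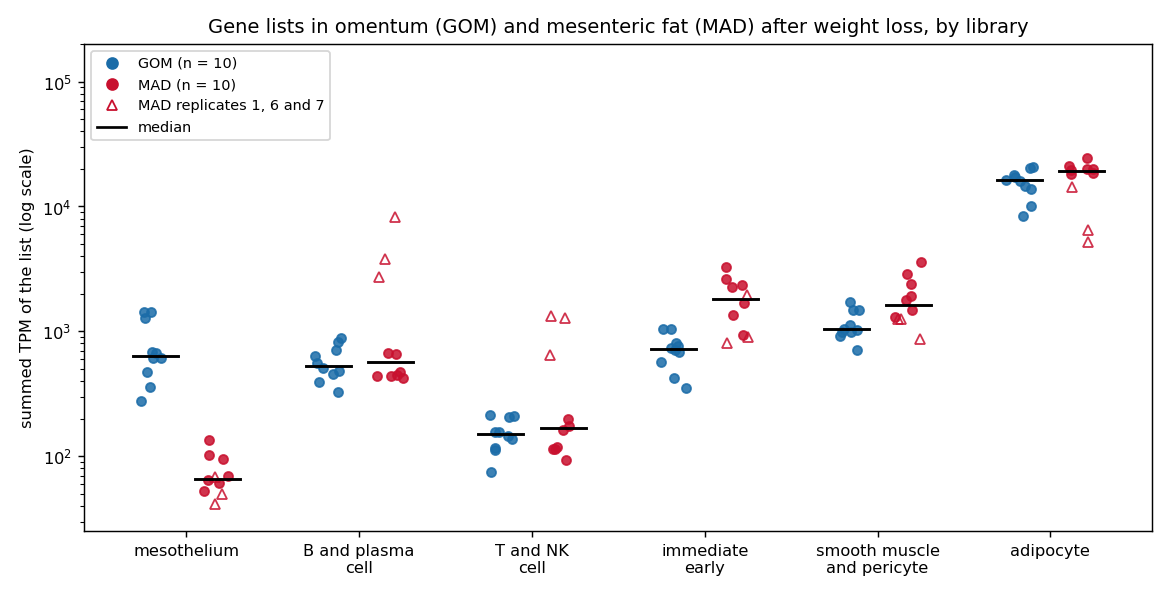
Summed TPM (log scale) of 6 gene lists in each of the 20 WL libraries, GOM in blue and MAD in red, with the median as a black bar and MAD replicates 1, 6 and 7 as open triangles. The mesothelium sums do not overlap (277 to 1425 in GOM, 41.2 to 134 in MAD), and the 3 triangles lie above every other library in the B and plasma cell and T and NK cell lists.

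Of 14089 PCGs tested, 533 (3.78%) were differentially expressed genes (DEGs) with a higher level in GOM and 308 (2.19%) with a higher level in MAD, called where edgeR's quasi-likelihood test gave an adjusted p below 0.05 with a fold difference of over 1.5. All log2 fold changes were taken as MAD over GOM, so a negative value is a higher level in GOM, and the median over all PCGs tested was 0.04. DESeq2 called 623 and 544. Without the 3 MAD libraries 456 of 14070 PCGs (3.24%) were higher in GOM and 198 (1.41%) in MAD, of which 389 and 127 were among the DEGs of all libraries. The TPM of the 2 groups did not overlap for 152 of the PCGs tested (1.08%), and of these 143 were DEGs higher in GOM and 9 were DEGs higher in MAD. As these are bulk samples, fewer cells of a type and less RNA per cell cannot be told apart. Because the labels do not name the pig of a library, p-values measure the spread between libraries.

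Of the mesothelium list, 12 of 15 genes tested were higher in GOM and none in MAD, with a median log2 fold change of -3.63 against 0.04 over all PCGs tested. The same 12 genes were called without MAD replicates 1, 6 and 7, with a median of -3.33. The summed TPM of the list had 277, 640 and 1425 as lowest, median and highest value in GOM and 41.2, 66.3 and 134 in MAD. BNC1, a zinc finger factor of mesothelium and keratinocytes, had 5.08, 13.6 and 45.8 TPM, in the same order, in GOM and 0, 0.061 and 0.585 in MAD. For both measures the 10 MAD libraries all lay below the lowest GOM library. The log2 fold change of BNC1 was -7.21 ± 0.63 (SE, n = 10 and 10, adjusted p in edgeR 1.3e-07).

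UPK1B, a tetraspanin of the mesothelium and the urothelium, had 23.1, 63.2 and 171 TPM in GOM and 0.346, 1.03 and 2.94 in MAD, with no overlap (-6.08 ± 0.43, adjusted p 1.0e-08). The simple-epithelium keratin KRT8 had 65.9, 187 and 452 TPM in GOM and 1.48, 3.03 and 18.5 in MAD, again without overlap (-5.46 ± 0.55, adjusted p 7.0e-07). KRT7, which pairs with type I keratins in simple epithelia, gave 15.5, 34.5 and 93.3 TPM against 0, 0.719 and 1.95 (-5.56 ± 0.52). KRT7 did not overlap either, and the 3 genes were at a few TPM or less in most MAD libraries. CDH1 had 7.19, 17.5 and 56.4 TPM in GOM and 0.315, 1.25 and 3.90 in MAD, a log2 fold change of -3.68 ± 0.51. GPM6A, a membrane glycoprotein, had 59.8, 109 and 415 TPM in GOM and 5.15, 9.14 and 21.3 in MAD (-3.98 ± 0.39). Neither gene had overlapping groups. The lipoxygenase gene ALOX15 had 4.52, 44.8 and 122 TPM in GOM and 1.23, 2.08 and 5.06 in MAD, and its groups overlapped although the difference was called (-4.57 ± 0.52). CLDN1 and CLDN15, claudins of tight junctions, PKHD1L1, the WNT amplifier RSPO1 and podoplanin (PDPN) were the other members called, with log2 fold changes of -3.41, -1.98, -3.63, -2.70 and -1.26. Of these, PDPN is also a marker of lymphatic endothelium. The members tested but not called were KRT18 (-0.69), KLK11 (0.07) and SBSPON (0.11).

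Outside the lists, SERPINE3, a member of the serpin family of protease inhibitors, had the largest fold change of all named genes. Its TPM was 9.08, 19.5 and 78.2 in GOM and 0, 0.067 and 0.420 in MAD (-7.79 ± 0.52, adjusted p 4.4e-09). LRP2 had 8.29, 23.1 and 92.8 TPM in GOM and 0.296, 0.612 and 1.86 in MAD (-5.23 ± 0.46, adjusted p 1.5e-07). Both were free of overlap. CRB2, a polarity protein of epithelia, gave 5.88, 14.8 and 46.3 TPM against 0.016, 0.159 and 0.566 (-6.31 ± 0.53). ST6GAL2, a sialyltransferase, gave 4.03, 18.3 and 99.8 TPM against 0.305, 0.917 and 1.48 (-5.29 ± 0.56). The synaptic vesicle gene SV2B, the protease inhibitor gene CST6, the sciellin gene SCEL and the single-strand DNA-binding gene RADX completed the group, with log2 fold changes of -5.31, -5.37, -5.31 and -5.80. All of these genes kept their call without the 3 MAD libraries.

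**Figure D2:**
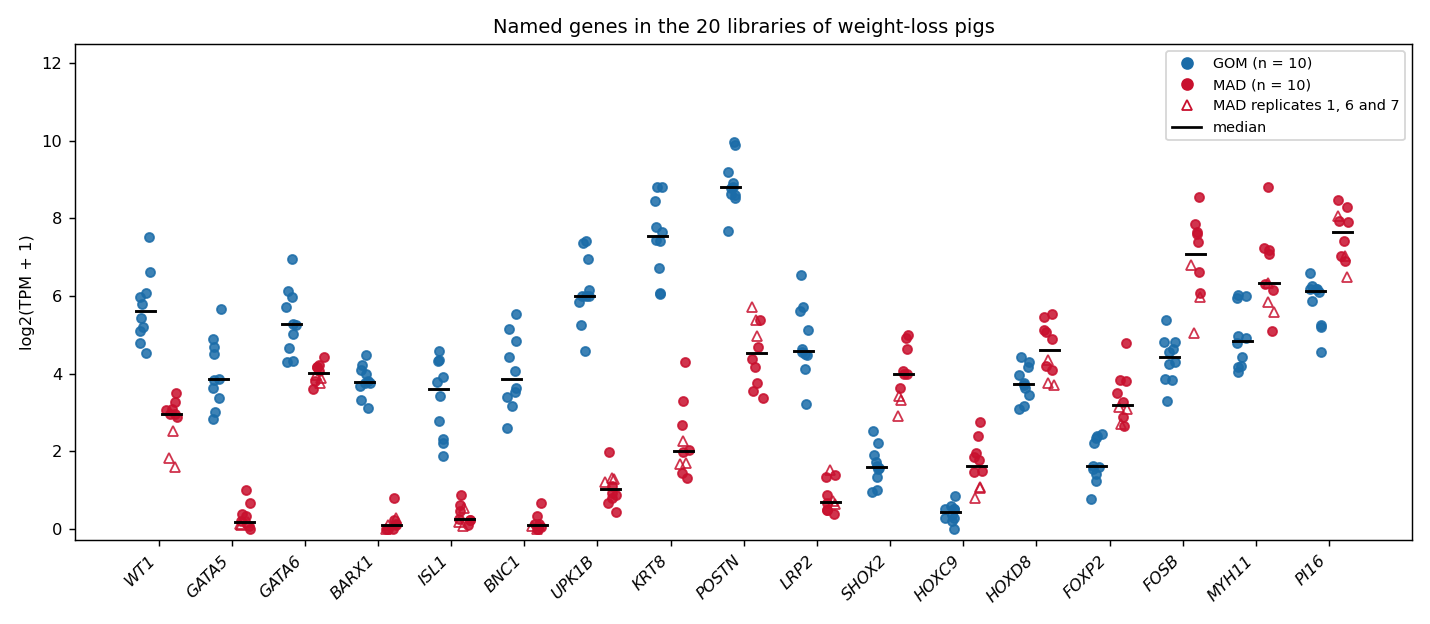
Expression as log2(TPM + 1) of 17 named genes in the 20 WL libraries, GOM in blue and MAD in red, with the median as a black bar and MAD replicates 1, 6 and 7 as open triangles. From WT1 to LRP2 the GOM points lie higher, with overlap only in GATA6, and from SHOX2 to PI16 the MAD points lie higher, without overlap in SHOX2 and FOXP2.

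Regional transcription factors, which set the position of tissues along the gut and body wall in the embryo, divided the depots in both directions. Of 25 list members tested, 9 were higher in GOM and 5 in MAD, with a median of -0.19, and the counts were 9 and 5 of 26 without the 3 MAD libraries. BARX1, the homeobox factor of stomach mesenchyme, had 7.67, 12.9 and 21.2 TPM in GOM and 0, 0.067 and 0.739 in MAD (-6.57 ± 0.47, adjusted p 1.0e-08). GATA5, a zinc finger factor of heart and gut, had 6.12, 13.4 and 49.5 TPM in GOM and 0, 0.134 and 0.993 in MAD (-6.16 ± 0.56, adjusted p 2.1e-07). ISL1, a LIM homeobox factor of the second heart field and stomach mesenchyme, gave 2.65, 11.3 and 23 TPM against 0.049, 0.180 and 0.841 (-5.13 ± 0.50). In all 3 genes the highest MAD library lay below the lowest GOM library. WT1 had 21.9, 48.2 and 181 TPM in GOM and 2.0, 6.77 and 10.4 in MAD (-3.26 ± 0.36, adjusted p 2.4e-06), also without overlap. TLX1, the spleen-forming homeobox factor, was low in both tissues, at 0.359, 1.17 and 2.03 TPM in GOM and 0, 0.059 and 0.233 in MAD (-3.63 ± 0.40). NKX3-2, a homeobox factor of the stomach, spleen and pancreas primordia, gave 6.64, 11.2 and 15.2 TPM against 0.434, 1.55 and 3.10 (-2.57 ± 0.27). Neither TLX1 nor NKX3-2 overlapped between the tissues. GATA6, a paralog of GATA5 that is active in peritoneal macrophages as well as in mesothelium, gave 18.9, 37.6 and 123 TPM against 11.2, 15.2 and 20.7, with some overlap (-1.57 ± 0.27, adjusted p 6.1e-04). HAND2 and MEIS1 were the other 2 higher in GOM (-1.52 and -0.83).

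In the opposite direction, SHOX2, a homeobox factor of limb and sinus node, had 0.927, 2.02 and 4.72 TPM in GOM and 6.48, 14.8 and 30.8 in MAD. All MAD libraries lay above all GOM libraries, and the log2 fold change was 2.91 ± 0.31 (adjusted p 1.5e-06). PRRX1, a mesenchymal homeobox factor, had 5.87, 9.41 and 15.8 TPM in GOM and 16.1, 20.2 and 62.4 in MAD (1.3 ± 0.21), likewise without overlap. NKX2-3, a factor of intestinal and splenic mesenchyme and of vascular addressins, gave 2.53, 4.18 and 5.59 TPM against 3.54, 10.1 and 14.2 (1.22 ± 0.21), and 8 MAD libraries lay above the highest of GOM. IRX3 and TBX18 were the others (1.15 and 0.93). FOXP2, a forkhead repressor outside the list, had 0.691, 2.05 and 4.46 TPM in GOM and 5.24, 8.22 and 26.7 in MAD with no overlap (2.04 ± 0.31, adjusted p 1.1e-04).

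HOX genes, whose order along each cluster follows the body axis, were higher in MAD wherever they were called. The counts were 1 of 6 tested in HOXA, 0 of 7 in HOXB, 3 of 5 in HOXC and 2 of 4 in HOXD. No HOX gene tested was called higher in GOM, although the median of the HOXB cluster lay on the side of GOM (-0.42). HOXC9 had 0, 0.352 and 0.807 TPM in GOM and 0.746, 2.10 and 5.70 in MAD, where 9 of 10 libraries exceeded the highest GOM value (2.75 ± 0.41, adjusted p 1.1e-04). HOXD8, the most abundant of those called, had 7.49, 12.3 and 20.7 TPM in GOM and 12.1, 23.9 and 45.7 in MAD (1.02 ± 0.25, adjusted p 1.3e-02). HOXA9 gave 0.138, 0.547 and 1.38 TPM against 0.54, 2.35 and 6.41 (2.10 ± 0.43). Both HOXD8 and HOXA9 overlapped between the tissues, with 5 and 6 MAD libraries above the highest of GOM. HOXC8, HOXC6 and HOXD3 differed by 1.43, 1.15 and 0.99 on the log2 scale. Medians over the members tested were 0.14, -0.42, 1.15 and 0.85 for the 4 clusters. Without the 3 MAD libraries the 6 genes kept their call, and HOXD4 and HOXD10 joined them (0.81 and 1.73).

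Secreted signals of the WNT, BMP and FGF families were split, with 8 of 32 tested higher in GOM, 3 higher in MAD and a median of -0.07. BMP3, an antagonist within the BMP family, had 6.41, 16.7 and 58.6 TPM in GOM and 0.310, 1.29 and 2.06 in MAD (-4.25 ± 0.42, adjusted p 6.8e-07). RSPO1, which strengthens WNT signals at LGR receptors, gave 17.3, 32.3 and 68.6 TPM against 1.86, 6.36 and 7.85 (-2.70 ± 0.27, adjusted p 7.2e-07). The ligand WNT5A gave 11.3, 18.1 and 45.3 TPM against 3.22, 5.71 and 10.2 (-1.96 ± 0.28). None of the 3 overlapped between the tissues. The ligands BMP7, WNT2B, WNT9A and FGF9 and the secreted DKK3 were also higher in GOM, by log2 fold changes of -3.58, -1.77, -1.62, -1.43 and -1.89. Higher in MAD were BMP5 (1.5), the activin-binding follistatin gene FST (1.29) and the WNT inhibitor SFRP4 (1.01). Without the 3 MAD libraries BMP5 lost its call and WNT2 gained one (1.56, higher in MAD).

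Retinoid genes, which make, carry and read retinoic acid, were higher in GOM for 4 of 15 members tested and in MAD for none, with a median of -0.39. ALDH1A2, the enzyme that makes retinoic acid, had 75.6, 152 and 266 TPM in GOM and 17.6, 43.4 and 99.5 in MAD, where 9 libraries lay below the lowest of GOM (-1.77 ± 0.27, adjusted p 1.6e-04). RARRES2, the retinoid-induced adipokine chemerin, had 558, 710 and 1228 TPM in GOM and 262, 346 and 553 in MAD without overlap (-1.01 ± 0.17, adjusted p 5.3e-04). The cellular carrier CRABP1 and the retinol dehydrogenase RDH10 followed with -2.70 and -0.72. These 4 remained called without the 3 MAD libraries, where the median was -0.06 and the retinol carrier RBP7 was called higher in MAD (0.87, and 0.72 without a call when all libraries were used).

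Complement genes were higher in GOM for 4 of 15 tested and in MAD for 2, with a median of -0.06. CFI, the protease that cleaves C3b and C4b, had 63.6, 206 and 867 TPM in GOM and 11.8, 19.3 and 41.1 in MAD, with no overlap (-3.70 ± 0.44, adjusted p 6.4e-06). C3, the central component, ran more widely, at 43.8, 413 and 1214 TPM in GOM and 39.5, 95.9 and 210 in MAD, so that 8 GOM libraries exceeded the highest of MAD (-2.31 ± 0.45, adjusted p 2.0e-03). The others were CFB (-2.44) and C4A (-1.55) in GOM and MASP1 (1.17) and C7 (1.07) in MAD. C7, of the membrane attack complex, lost its call without the 3 MAD libraries (0.89).

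Of 24 collagen and matrix genes tested, 2 were higher in GOM and 1 in MAD, with a median of -0.01. Over all PCGs tested, 3.78% were higher in GOM and 2.19% in MAD, and 5.97% were called in either direction. POSTN, the matricellular protein periostin, had 204, 445 and 1008 TPM in GOM and 9.43, 22.3 and 51.3 in MAD, without overlap (-4.29 ± 0.38, adjusted p 1.5e-07). Fibronectin (FN1) had 65.6, 569 and 2679 TPM in GOM and 48.1, 106 and 252 in MAD, where the groups overlapped (-2.90 ± 0.55, adjusted p 1.6e-03). The tenascin gene TNC was higher in MAD (2.0), a call lost without the 3 libraries. Fibroblast and progenitor genes were called in 4 of 17, of which DCN, CLEC11A and BMP7 were higher in GOM and PI16 in MAD, with a median of 0.28. All 4 kept their call without the 3 libraries, and then 4 genes were higher in MAD, PI16, the microfibril genes MFAP5 and FBN1 (0.89 and 0.98) and WNT2, which is in this list too. PI16, which marks adventitial fibroblast progenitors, had 22.5, 69.4 and 94.9 TPM in GOM and 88.3, 205 and 356 in MAD (1.82 ± 0.26, adjusted p 4.9e-05), and 9 MAD libraries exceeded the highest of GOM. The proteoglycan gene DCN had 1307, 1607 and 2866 TPM in GOM and 492, 955 and 1493 in MAD (-0.91 ± 0.20, adjusted p 4.4e-03). For DCN, 8 MAD libraries lay below the lowest of GOM.

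Immediate early genes, which cells transcribe within minutes of a stimulus, were higher in MAD for 11 of 13 tested and in GOM for none, with a median of 1.27. Without the 3 MAD libraries 10 of 13 were called, with a median of 1.34. FOSB, an AP-1 subunit, had 8.87, 20.8 and 40.6 TPM in GOM and 31.9, 138 and 374 in MAD, where 9 libraries exceeded the highest of GOM (2.87 ± 0.36, adjusted p 1.2e-05). FOS had 136, 338 and 617 TPM in GOM and 301, 921 and 1775 in MAD (1.5 ± 0.30, adjusted p 2.2e-03). JUNB, another AP-1 subunit, gave 63.4, 119 and 214 TPM against 167, 279 and 450 (1.27 ± 0.22, adjusted p 6.0e-04). FOS and JUNB overlapped between the tissues, with 7 and 6 MAD libraries above the highest of GOM. The zinc finger factors EGR1, EGR2 and EGR3 differed by 1.43, 1.19 and 1.58, the orphan nuclear receptors NR4A1, NR4A2 and NR4A3 by 1.62, 1.06 and 1.47, ATF3 by 1.22 and KLF4 by 0.93. EGR2 was the member that lost its call without the 3 libraries, and IER3 and MYC were not called in either fit (-0.35 and 0.55 with all libraries).

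Smooth muscle and pericyte genes were higher in MAD for 6 of 15 tested and in GOM for none, with a median of 0.65, and for 7 without the 3 MAD libraries, with a median of 0.73. DES, the intermediate filament desmin, had 2.96, 8.97 and 36.1 TPM in GOM and 8.86, 53.1 and 184 in MAD (2.21 ± 0.43, adjusted p 1.8e-03). MYH11, the smooth muscle myosin heavy chain, had 15.4, 27.9 and 64.5 TPM in GOM and 33.4, 79.2 and 449 in MAD (1.89 ± 0.39, adjusted p 2.9e-03). The smooth muscle actin gene ACTA2 gave 80.2, 160 and 322 TPM against 165, 362 and 759 (1.26 ± 0.25, adjusted p 2.4e-03). The groups overlapped in all 3, with 6 or 7 MAD libraries above the highest of GOM. ACTG2, the enteric smooth muscle actin, the actin-binding calponin CNN1 and the myosin light chain kinase MYLK had log2 fold changes of 2.35, 1.95 and 1.5, and TAGLN joined them without the 3 libraries (0.73). In none of the 17 blood endothelium genes tested was a difference called (median 0.21).

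Lymphocyte genes were higher in MAD when all libraries were used, in 11 of 19 B and plasma cell genes (median 2.25), 6 of 16 T and NK cell genes (median 1.81) and 5 of 14 genes of lymphoid stroma and chemokines (median 1.14). Without MAD replicates 1, 6 and 7 the counts fell to 1 of 18, 0 of 16 and 1 of 14 and the medians to 0.12, -0.22 and 0.06. The 3 libraries were left out for their high sum of this same B and plasma cell list. The fall of that list, and of lists that moved with it, thus followed from the choice and is no separate result. MS4A1, the B cell antigen CD20, had 0.108, 0.70 and 1.13 TPM in GOM and 0.734, 2.57 and 236 in MAD. In the 3 libraries MS4A1 ran from 61.9 to 236 TPM and in the other 7 from 0.734 to 2.77. Its log2 fold change was 5.97 ± 1.17 (adjusted p 1.9e-03) with all libraries and 1.23 (adjusted p 0.070) without the 3. CD79B, of the B cell receptor, was the B cell gene that kept its call, with 5.53 and 1.16 in the respective fits. CCR7, the receptor that guides lymphocytes into lymph nodes, had 0.727, 1.49 and 2.86 TPM in GOM and 0.833, 3.04 and 85.4 in MAD, from 3.86 ± 0.85 with all libraries to 0.57 (adjusted p 0.49) without the 3. CD3E, of the T cell receptor complex, had 3.74, 7.84 and 13.8 TPM in GOM and 4.89, 7.82 and 107 in MAD, and moved from 2.05 to -0.17. The medians of CD3E thus lay close together although the fitted difference was called. Among the chemokines, CXCL14 remained called (1.43 and 0.92), whereas CXCL9 (3.03 and 0.90), CCL21 (2.25 with all libraries), CCL5 (1.25 with all libraries) and the CCR7 ligand CCL19 (1.70 and 0.67) did not. No macrophage gene of 19, MHC class II gene of 6 or interferon-stimulated gene of 19 was called in either fit.

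**Figure D3:**
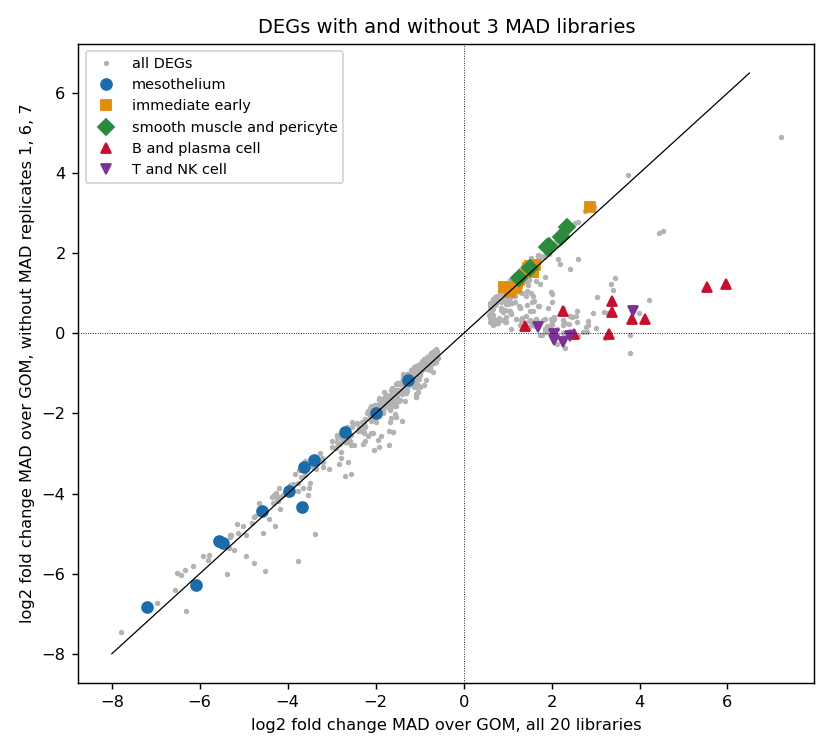
Log2 fold change MAD over GOM of each DEG with all 20 libraries (horizontal axis) and without MAD replicates 1, 6 and 7 (vertical axis), with a line of equal values. Mesothelium, immediate early and smooth muscle genes lie near the line, and B and plasma cell and T and NK cell genes drop towards 0, as MS4A1 does from 5.97 to 1.23. The left-out libraries were chosen by their B and plasma cell sum, so this drop follows from the choice.

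Of 21 adipocyte genes tested, 1 was higher in GOM (AGPAT2, an enzyme of triglyceride synthesis, -0.74 ± 0.21, adjusted p 3.5e-02) and none in MAD, beside 3.78% and 2.19% of all PCGs tested, and the median was 0.20. The adipokine ADIPOQ had 868, 2919.8 and 4913 TPM in GOM and 478, 2377 and 4848 in MAD, a log2 fold change of -0.03 ± 0.33 that was not called. Leptin (LEP), PPARG, the master regulator of adipocytes, the fatty acid carrier FABP4 and lipoprotein lipase (LPL) had 0.11, 0.23, 0.21 and 0.42. Of 20 lipogenesis genes SCD5, a stearoyl-CoA desaturase, was called (-1.65 ± 0.27, adjusted p 3.7e-04), and of 17 genes of lipolysis the adrenoceptor ADRA2B was (-0.95 ± 0.26). AGPAT2 and ADRA2B lost their calls without the 3 MAD libraries. The medians of the adipocyte, lipogenesis, lipolysis and fatty acid oxidation lists were 0.20, 0.07, 0.15 and 0.00 with all libraries. They were 0.42, 0.14, 0.40 and 0.15 without the 3, beside 0.01 over all PCGs tested. The adipocyte sum of the other 7 MAD libraries was 18131 to 24375 TPM, against 8432 to 20527 in GOM. No gene was called among 21 of fatty acid oxidation, 17 of the circadian clock, 69 of the nuclear-encoded respiratory chain, 12 encoded by mitochondria, 45 of the cytosolic ribosome and 14 of proliferation, with medians of 0.00, -0.00, 0.06, 0.53, 0.16 and 1.11. Without the 3 libraries the proliferation median was -0.13, and ANGPTL4, an inhibitor of lipoprotein lipase in the list of fatty acid oxidation, was called higher in MAD (0.86). Glucocorticoid and steroid genes were called in 2 of 11, the cortisol-activating HSD11B1 (-0.68) in GOM and the phosphatase DUSP1 (0.89) in MAD, and DUSP1 alone kept its call. Schwann cell and neuron genes were called in 3 of 9, with the adhesion molecule NCAM1 (1.02) in MAD and the receptor GFRA3 (-1.22) and the myelin protein PMP2 (-1.03) in GOM. Of these GFRA3 lost its call without the 3 libraries, and the glial factor SOX10 gained one (1.88, higher in MAD). Lymphatic endothelium genes were called in 3 of 7, PDPN in GOM and PROX1 and CCL21 in MAD, and of these PDPN kept its call. Of 6 erythrocyte and neutrophil genes S100A8 was called (-2.8, not without the 3 libraries), and of 4 skeletal muscle genes TNNT1 (-1.68) and DES were, while no gene of the 2 tested of exocrine pancreas and the 3 of intestinal epithelium was.

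The A-B index, which is positive for a 20-kb bin in compartment A and negative in B, was compared by limma over 113298 autosomal bins. It was higher in GOM in 12877 bins (11.4%) and in MAD in 13950 (12.3%) at an adjusted p below 0.05. Full A/B switches, with over 80% of the samples of each tissue in opposite compartments, were few, 227 bins (0.2%) in A in GOM and 159 (0.14%) in A in MAD. The longest run of switches in A in GOM covered 240 kb of chromosome 14 (2800001 to 3040000) and held ROR2, a receptor of WNT5A. Bins within one compartment whose index differed by over 0.75, the A/B variable bins, numbered 5414 (4.78%) higher in GOM and 4727 (4.17%) higher in MAD. The longest run higher in GOM covered 900 kb of chromosome 3 (47880001 to 48780000) with SLC5A7 and ST6GAL2, and the longest higher in MAD 1360 kb of chromosome 6 (4980001 to 6340000) with the T-cadherin gene CDH13. Counted by frequency, 1002 bins (0.884%) were in A in at least 70% of GOM samples and at most 30% of MAD samples, and 1213 (1.07%) the reverse, of which the longest run of 360 kb on chromosome 2 held SEMA6A. The index is a ratio of contacts with A and B bins and states no contact of a gene with an enhancer.

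At the start of WT1 the index was 1.69, 2.63 and 4.69 as lowest, median and highest value in GOM and 0.13, 0.67 and 1.03 in MAD. Both tissues had WT1 in A, and their samples did not overlap (MAD minus GOM -2.08 ± 0.27 SE, adjusted p in limma 1.04e-05). GATA6 showed the same order with less spread, 2.0, 2.34 and 2.80 against 0.73, 1.06 and 1.75 (-1.27 ± 0.15, adjusted p 4.74e-06). CDH1 lay in A in 10 of 10 GOM samples and in 2 of 10 MAD samples (-1.26 ± 0.20), and BNC1 in 10 and 3 (-1.11 ± 0.26). SV2B was the DEG of largest fold in a switch bin, in A in 9 GOM samples and in no MAD sample (-1.43 ± 0.24). ROR2, the other DEG higher in GOM in a switch bin, lay in A in 10 and 1 samples (-1.29 ± 0.21), and its expression differed by -1.0 on the log2 scale. ISL1 and ST6GAL2 lay in B in nearly all samples of both tissues but nearer to A in GOM (-1.33 ± 0.20 and -1.49 ± 0.25). DCN (-1.76 ± 0.19), the neighbouring LUM (-1.45 ± 0.22), HAND2 (-1.40 ± 0.24), BMP3 (-1.43 ± 0.32), SCD5 (-1.6 ± 0.26) and ALDH1A2 (-1.0 ± 0.18) also had a higher index in GOM. For LUM, a proteoglycan gene like DCN, expression was not called (0.09).

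SHOX2 lay in A in 6 GOM samples and all 10 MAD samples, with an index of -0.51, 0.37 and 1.13 against 0.72, 1.53 and 1.91 (1.15 ± 0.23, adjusted p 8.59e-04). NKX2-3 differed by 1.78 ± 0.28, IRX3 by 1.18 ± 0.23 and PRRX1 by 1.03 ± 0.21, so that 4 of the 5 regional factors with a higher expression in MAD also had a higher index there. TBX18 was the exception (0.25 ± 0.24). Of the 9 higher in GOM, WT1, GATA6, ISL1, HAND2 and MEIS1 (-0.85 ± 0.23) had a called index difference. Of all 25 list members tested, called in expression or not, 7 had a called higher index in MAD and 5 in GOM. Over all tested PCG starts the shares were 13.2% and 7.74%. HOXD3 and HOXD8 differed by 0.91 ± 0.17 and 0.80 ± 0.21, FOXP2 by 1.00 ± 0.22, MYH11 by 1.04 ± 0.27, NR4A3 by 1.03 ± 0.19 and CXCL14 by 1.26 ± 0.28. BARX1, GATA5, TLX1, NKX3-2, KRT7, KRT8, HOXA9, HOXC6, HOXC8, HOXC9, FOS, FOSB and JUNB had no called index difference. KRT8, for one, had an index of 2.65, 3.39 and 4.09 in GOM and 2.76, 3.59 and 4.22 in MAD. Conversely, the genes of largest index difference in switch bins were mostly not called in expression. MTUS1, a microtubule-associated tumour suppressor, lay in A in 9 GOM samples and no MAD sample (-2.05 ± 0.26) with an expression difference of -0.45, and TLR4, the receptor of bacterial lipopolysaccharide, in A in 1 and 9 samples (1.6 ± 0.30) with 0.15. RIPOR2, an inhibitor of RhoA, went in opposite directions, with a lower index (-1.52 ± 0.21) and a higher expression in MAD (1.64), the latter not called without the 3 MAD libraries. SEMA6A, a transmembrane semaphorin, lay in A in 0 and 10 samples (1.41 ± 0.16) with 0.37.

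**Figure D4:**
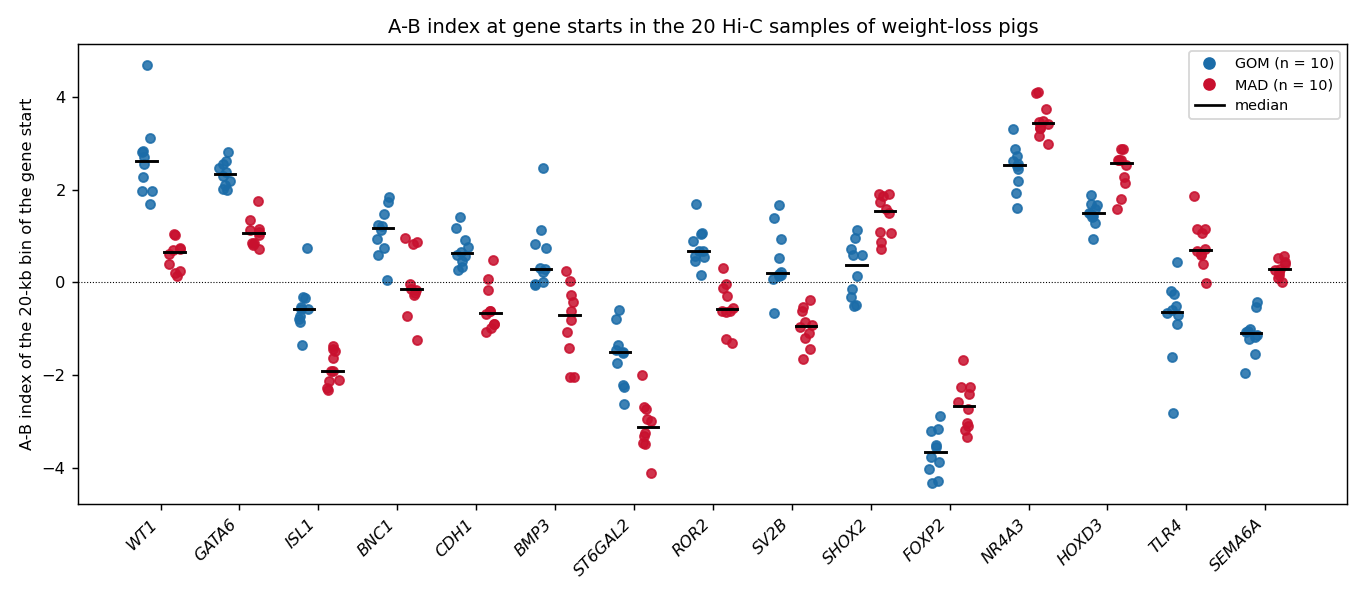
A-B index of the 20-kb bin of the gene start for 15 named genes in the 20 WL Hi-C samples, GOM in blue and MAD in red, with the median as a black bar and a dotted line at 0 between compartments. WT1 and GATA6 lie in A in all samples and higher in GOM, CDH1, ROR2 and SV2B lie on both sides of 0 with GOM higher, and SHOX2, TLR4 and SEMA6A lie higher in MAD.

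The index difference at the starts of DEGs is given beside that of the other PCGs tested with a known start bin. Of 424 DEGs higher in GOM, 330 (77.8%, Wilson 95% interval 73.6 to 81.5) had a higher index in GOM, with a median difference of -0.31. Of 253 DEGs higher in MAD, 73 (28.9%, 23.6 to 34.7) had a higher index in GOM, with a median of 0.25, and of the 9966 other PCGs 43.4% did, with a median of 0.07. The index difference itself was called higher in GOM at 824 of 10643 PCG starts (7.74%) and higher in MAD at 1400 (13.2%). It was called in the direction of expression at 137 of the 424 (32.3%) and at 75 of the 253 (29.6%), against 6.76% and 13.3% of the other PCGs. The A/B variable bins higher in GOM held 287 tested PCGs, of which 63 were DEGs higher in GOM and 5 DEGs higher in MAD, and those higher in MAD held 581, of which 2 and 32 were. The switch bins held 12 and 20 tested PCGs, with 2 DEGs higher in GOM and 1 in MAD among the former and 1 higher in MAD among the latter. Genes are not replicates and neighbours share a bin, so the intervals cover counting error only and no test was made.

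H3K27ac regions came from 1 pooled table per tissue, of 4 GOM and 3 MAD samples with 2 and 1 input samples, and have no replicates. GOM had 22783 regions over 494 Mb with 1442 super-enhancers, and MAD 25450 regions over 529 Mb with 1431. Of the GOM regions 82.6% overlapped one of MAD by at least 1 base, and of the MAD regions 76.6% overlapped one of GOM. Among super-enhancers, 71.3% of those of GOM overlapped one of MAD and 71.8% of those of MAD one of GOM. A super-enhancer of GOM alone lay within 10 kb of 96 of 439 DEGs higher in GOM (21.9%), and one of MAD alone near 8 (1.82%). For the 259 DEGs higher in MAD the counts were 3 (1.16%) and 29 (11.2%), and for the 10309 other PCGs 5.73% and 5.97%. The pool of MAD includes a sample of replicate number 7, and its part was not tested.

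Near WT1 the GOM list held a super-enhancer of 81.8 kb (chr2:28387800-28469599, Sscrofa11.1) at rank 375 by signal, where MAD had 4 ordinary regions of best rank 2021. BNC1 had a super-enhancer of 181.8 kb in GOM at rank 446 and no region in MAD. For GATA6 the ranks were 436 in GOM, a super-enhancer, and 1797 in MAD, an ordinary region. Super-enhancers in GOM alone also lay by CRB2, LRP2, CDH1, GPM6A, GATA5, KRT7, CST6, BMP7, RSPO1, WNT9A and CFB. MYLK, with a higher expression in MAD, went the other way. It had a super-enhancer of 157.8 kb in GOM alone, at rank 441, and ordinary regions of best rank 1744 in MAD. Among genes not called in expression, MTUS1 and BICC1 had a super-enhancer in GOM alone and SEMA6A had 2 in MAD alone. BARX1 had no region within 10 kb in either tissue despite its large expression difference. Other genes with a higher expression in GOM also went the other way. Among them, KRT8 and ALOX15 had no region in GOM and 1 ordinary region each in MAD, at ranks 6727 and 7570. SCD5 had ordinary regions in both tissues, at best rank 2966 in GOM and 1572 in MAD. On the side of MAD, FOS had a super-enhancer of 196.4 kb (chr7:98312400-98508799) at rank 6, and EGR1 and EGR3 had super-enhancers at ranks 641 and 631, whereas the GOM list held no region within 10 kb of these 3 genes. FOS was expressed in every GOM library all the same, and the authors left out regions near gene starts before ranking. FOSB and JUNB had super-enhancers in both tissues, at ranks 656 and 348 in GOM and 418 and 204 in MAD. ATF3 had the reverse order, with 2 super-enhancers in GOM at a best rank of 767 and 1 in MAD at rank 1063, and NR4A3 had an ordinary region in each tissue, at rank 2037 in GOM and 1763 in MAD. The best region by HOXC8 ranked 1530 in MAD and 10862 in GOM, and SHOX2 had a single region of 2.0 kb in MAD. Of the genes named here by rule, 16 DEGs had groups without overlap in TPM and a called index difference, 14 of them higher in GOM and the others SHOX2 and FOXP2. Of these 16, 6 also had a super-enhancer in the tissue of higher expression alone, namely WT1, LRP2, CDH1, CRB2, BNC1 and GPM6A. Genes were named partly for a large fold or index difference, so these counts describe the named genes only. Over all PCGs tested, 143 of the 152 without overlap were DEGs higher in GOM. A super-enhancer of GOM alone lay near 21.9% of all DEGs higher in GOM.

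To ask whether the 2 depots differed otherwise in weight-gain pigs, the MAD over GOM log2 fold change in WL minus that in WG was tested as an interaction in edgeR over 14221 PCGs. It was called higher in WL for 236 PCGs (1.66%) and lower for 36 (0.253%), among them 10 T and NK cell and 6 B and plasma cell genes but no gene of the mesothelium list. With normal-diet pigs in place of WG, 850 were called higher and 454 lower. Most normal-diet GOM libraries had low counts and a low share of TPM on PCGs (7835504 and 74.9% in replicate 1). Most normal-diet MAD libraries had more of both (18613146 and 96.5% in replicate 1). Tissue and library quality therefore cannot be told apart in that alternative. Against WG and without WL MAD replicates 1, 6 and 7, no gene was called by edgeR, with 301 of 14209 at an unadjusted p below 0.05. Among the genes of largest fold, SERPINE3 had -6.39 in WG and -7.79 in WL, BARX1 -6.35 and -6.57, BNC1 -5.98 and -7.21, GATA5 -5.44 and -6.16, and SHOX2 2.33 and 2.91, and the interaction was called for none of these 5. FOSB had 2.39 in WG and 2.87 in WL. LRP2 was the largest difference in the lower direction, with -1.46 in WG and -5.23 in WL (interaction -3.78 ± 0.95, adjusted p 0.015). Its TPM in WG was 21.3 ± 14.1 (SD, n = 45) in GOM and 8.10 ± 39.9 (n = 36) in MAD, where the SD exceeded the mean, and in WL it was 34 ± 24.7 and 0.87 ± 0.573 (n = 10 each). WNT2B differed by -0.12 in WG and -1.77 in WL (interaction -1.65 ± 0.31, adjusted p 0.0021), BMP7 by -1.49 and -3.58 (-2.09 ± 0.49) and TLX1 by -5.75 and -3.63 (2.12 ± 0.52). CCR7 led the lymphocyte genes of the list, with 0.71 in WG and 3.86 in WL and an interaction of 3.13 ± 0.64 (adjusted p 0.0038), which was -0.14 without the 3 libraries. In WG, 1 of 36 MAD and 1 of 45 GOM libraries exceeded the highest WL library of GOM in the summed TPM of B and plasma cell genes, and 3 and 5 did so in that of T and NK cell genes. For the A-B index the same test in limma, with the 46 GOM and 37 MAD samples of WG, called 5 of 113298 bins (0.00441%), none of which holds the start of a PCG.

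**Figure D5:**
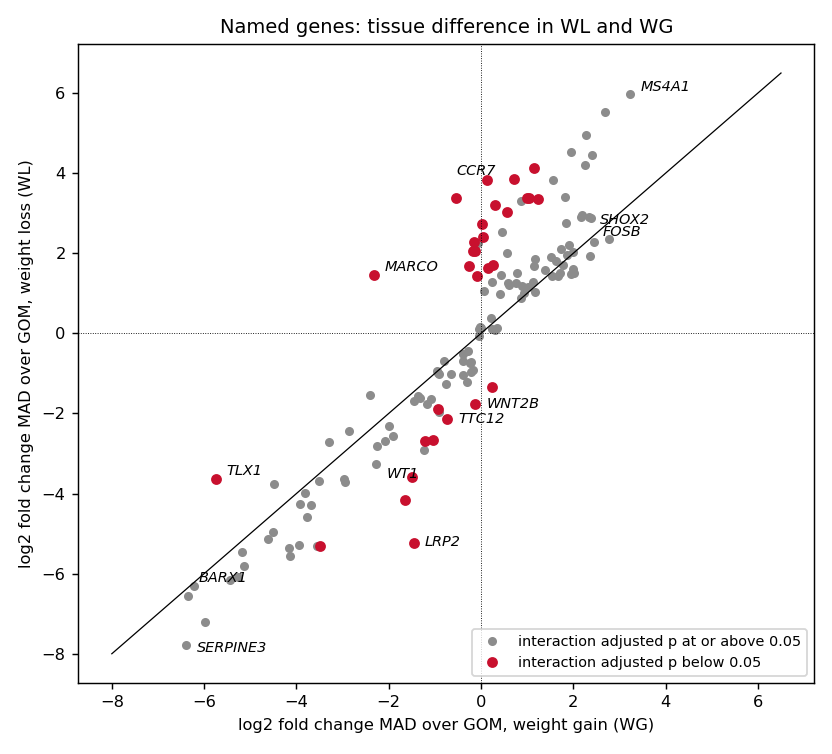
Log2 fold change MAD over GOM of the named genes in weight gain (horizontal axis) and weight loss (vertical axis), red where the interaction had an adjusted p below 0.05 and grey otherwise, with a line of equal values. SERPINE3, BARX1 and SHOX2 lie near the line, LRP2 lies below it (-1.46 and -5.23) and CCR7 above it (0.71 and 3.86).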

How the data were processed

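RNA-seq, Hi-C and H3K27ac ChIP-seq of 4 adipose tissues in 3 nutritional groups were deposited, and the 2 tissues and 1 group described here were taken from the labels. The members and the gene lists were chosen with earlier results of these data known. Per the study's methods, the authors quantified stranded, rRNA-depleted total RNA with kallisto (0.43.0) on Sscrofa11.1 with added lncRNAs and summed transcripts by gene with tximport, so the deposited table holds expected counts, also called estimated counts, of 21280 PCGs, and the deposited TPM are relative to PCGs, lncRNAs and other transcripts together. Because of the latter, a library with a low share on PCGs has lower TPM for all of them, and the tests used the counts.

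Expected counts were rounded to whole numbers, genes were kept where 80% or more of the libraries of GOM or of MAD exceeded 0.5 TPM, and edgeR (4.0.16) with TMM factors and its 2-sided quasi-likelihood test gave log2 fold changes, SE and Benjamini-Hochberg adjusted p over all PCGs tested. DEGs were those with an adjusted p below 0.05 whose fold change was over 1.5. On simulated counts of the tissue comparison over 14089 PCGs, 74% of genes changed 2-fold and 98% of those changed 4-fold were recovered. No 2 libraries of a tissue agreed within sampling noise.

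Per the study's methods, Hi-C was made from the adipocyte layer kept after centrifugation, and the RNA and ChIP methods name no such step. The authors mapped Hi-C reads to the same build at a mapping quality of at least 30, balanced and quantile-normalised the contacts, and deposited the A-B index, a score per 20-kb bin. It was compared by limma (3.58.1), MAD minus GOM, without further scaling. The study's classes were used with limma in place of its test. For ChIP-seq the authors pooled replicates, mapped with BWA (0.7.15), removed duplicates with SAMtools (1.3.1), called peaks with SICER and stitched and ranked them with ROSE without regions near gene starts; the deposited signal of regions is not comparable between tissues, and its deposited rank and super-enhancer mark were described only. Gene starts and promoters came from the RefSeq annotation of Sscrofa11.1, matched by symbol (13094 PCGs on autosomes).

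Named genes were, in each direction, the 15 DEGs of largest fold with a symbol and a mean of at least 5 TPM in the higher tissue, up to 8 DEGs per list with at least 1 TPM, the 8 PCGs of largest index difference in switch bins and the 8 of largest interaction, and, added after the data were seen, the 15 of largest fold without MAD replicates 1, 6 and 7. Other list members are named with single values. Results for some members of the lists are not reported here, and the counts of the steroid and of the Schwann cell list leave such members out. Alternatives were other scalings, filters and tools, left-out libraries, a replicate block, other index thresholds and normalization, and normal-diet pigs in place of WG. The count table and the index table each held 9 columns that match no label, and these were not used. The other enhancer tables were not used here. R 4.3.3 and Python 3.11.15 were used.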

Additional observations from a re-analysis of the deposited data

Results flagged for a closer look

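In 11 of 138 groups of 10 values tested, a single sample lay far from the other 9, where its gap to the nearest exceeded 0.466 of the whole range. For normally distributed values chance gives about 1 in 20 such groups. That rate need not hold for skewed TPM or TPM near 0, so the count cannot be set against it. In expression, MAD replicate 3 was high in 4 genes that were near 0 in the other MAD libraries, by 0.497 of the range in BNC1, 0.663 in BARX1, 0.693 in RADX and 0.772 in SCEL, and remained below every GOM library in all 4. The same library had the most PCGs above 0.5 TPM (16429). CD79B was low in GOM replicate 7 (0.474), CLEC4G high in GOM replicate 10 (0.628), the summed TPM of intestinal epithelium genes high in GOM replicate 10 (0.653), that of blood endothelium genes low in GOM replicate 6 (0.554), and the share of TPM on PCGs low in GOM replicate 9 (0.51). In Hi-C, replicate 10 had the lowest share of bins in A in both tissues, by 0.539 of the range in GOM (45.4%) and 0.661 in MAD (46.9%).

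The tissue difference differed between WL and WG by the interaction in edgeR. The value in WL minus that in WG on the log2 scale was 3.91 for STMN2, 3.85 for CCL17, 3.79 for MARCO, 3.69 for TNFRSF9, 3.13 for CCR7, 2.97 for SPIB, 2.89 for DAPL1 and 2.68 for FCMR in the upward direction. Downward it was -3.78 for LRP2, -2.52 for TNNI3, -2.09 for BMP7, -1.80 for SV2B, -1.63 for ANGPTL7, -1.58 for FAM131C, -1.47 for PTPRD and -1.41 for TTC12. All 16 lost their call without MAD replicates 1, 6 and 7, although LRP2 (-3.94) and BMP7 (-1.87) kept their direction and size. TNFRSF9, CCR7 and SPIB are lymphocyte genes and MARCO and CCL17 genes of myeloid cells.

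The A-B index differed in the same way by limma in 5 bins, by -1.11 on chromosome 1 from 98880001, -0.97 on chromosome 2 from 74140001, -0.90 on chromosome 3 from 97600001, 1.18 on chromosome 9 from 4860001 and 1.02 on chromosome 18 from 24800001.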

How the results depend on the processing

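The DEGs higher in GOM numbered 455 to 591 and those higher in MAD 203 to 389 when each library was left out in turn, with 203 without GOM replicate 8. For MAD the count was 544 with DESeq2, 530 with edgeR's exact test, 549 with the dispersion of 4 groups, 173 without the 2 libraries of lowest counts and 198 without MAD replicates 1, 6 and 7. With the 2 GOM and 3 MAD libraries of at least 90% TPM on PCGs, edgeR called 17 and 0, with 548 of 14163 higher in MAD at an unadjusted p below 0.05, and fewer samples entered that fit. Other scalings and filters kept both counts within 1.5 times. Of 3640 values of the 115 named DEGs under alternatives, 3286 kept direction and call, 338 lost the call and 16 turned. With the 2 and 3 libraries these were TNFRSF9 (-0.19), AGPAT2 (0.20), CD5 (-0.12), CD3E (-0.24), CD4 (-0.054), BLK (-0.61), PDPN (0.26), GFRA3 (0.55) and DAPL1 (-0.54), and without MAD replicates 1, 6 and 7 TNFRSF17 (-0.014), CD5 (-0.061), TCF7 (-0.21), CD3E (-0.17), CD4 (-0.027), BLK (-0.018) and DAPL1 (-0.12). The cause was not tested.

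A/B variable bins numbered 9392 and 9776 at an index difference above 0.5, bins by frequency 548 and 534 at 80% and 20%, and switches in A in MAD 250 without the MAD samples of the same 3 numbers. After quantile normalization of the index, 71.5% of the DEGs higher in GOM, 25.3% of those higher in MAD and 31.7% of the other PCGs had a higher index in GOM. At an overlap of at least 50% of both regions, 44.9% of GOM and 40.2% of MAD enhancer regions were shared. The interaction gave 56 genes lower in WL with DESeq2 and 0 and 0 without the 3 libraries. With normal-diet pigs in place of WG it gave 454 lower and 850 higher, where tissue and library quality cannot be told apart. The index interaction gave 0 bins in limma after quantile normalization and 0 with normal-diet pigs, with 9010 and 5709 bins at an unadjusted p below 0.05.

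Replicate numbers were not taken as pairs in the main fits, since the labels do not tie them to pigs. Of pairs with the same number, 7 of 10 in RNA-seq and 7 of 10 in Hi-C had a correlation above 0.1. Their medians were 0.164 and 0.222, against -0.01 and -0.03 for pairs of unlike number, and 4 and 7 samples correlated best with their own number. The p-values of the main fits thus ignore any pairing of tissues within a pig. With a replicate block, 511 and 241 DEGs were called, and 86 of the 115 named DEGs kept their call. Among the other 29 were lymphocyte genes such as MS4A1, CD79B, CCR7 and CD3E, and FN1, TNC, C4A, CRABP1, HSD11B1, GFRA3, CCL21, TNNT1, S100A8 and RIPOR2. In that fit the interaction gave 127 genes lower and 149 higher in WL.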
